A study of Homo sapiens with 5 samples.

Results

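The genes described here encode collagens, laminin chains, integrin subunits, glycoproteins of fibres and microfibrils, and the enzymes that crosslink them. They were found by symbol: every listed gene whose name matches the numbered series of these families, together with TNC, TNXB, HSPG2, AGRN, SPARC, FN1 and ELN, was taken, and COL2A1, COL9A2 and COL9A3 were left out. The rule found 28 genes of the 2694 in the files. RefSeq holds 116 protein-coding genes with such symbols (the same 3 left out), and the others are not listed. Integrins named by a letter are outside the rule.

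Total RNA was sequenced from TC28a2, a line of immortalised human chondrocytes that the labels place in costal cartilage. Cells were grown for 5 days in growth medium with 10% fetal bovine serum (GM, 2 libraries) or in a medium that drives hypertrophy (HM, 3 libraries). This hypertrophic medium held 1% serum, 1% ITS, 10 nM dexamethasone, 1 µM of the thyroid hormone T3, 10 mM β-glycerophosphate, 50 µg/ml ascorbic acid, 10 ng/ml GDF-5 and 100 ng/ml BMP-2, and it was changed every 2 days. All libraries come from 1 line. The study's methods call the replicates of its experiments biological in general terms, but the labels do not say whether these libraries were separate cultures, so the p values measure the spread between libraries, part of which may be technical. The effects of less serum and of each additive cannot be told apart in this design.

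The matrix around a chondrocyte is a network of collagen fibrils with proteoglycans held between them. Fibrillar collagens are secreted as triple helices, assembled into fibrils and crosslinked by lysyl oxidases, and other collagens sit on the fibril surface or form filaments beside the cell. Fibronectin, thrombospondins and tenascins bind cells to this network or loosen them from it, fibulins, EMILINs and latent TGF-β binding proteins decorate elastic microfibrils, and laminins build basement membranes. Integrins are receptors of 1 alpha and 1 beta subunit that carry these contacts to the cytoskeleton.

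The deposited values are log2 values made by the authors from read counts per gene, scaled between libraries by relative log expression (RLE), and all differences below are HM minus GM on that log2 scale. Only genes with reads in all 5 libraries are listed, and the list appears to hold the genes that the authors called between these media, since the smallest difference among the 2694 was 0.214 in size. A gene that is not listed may have been filtered, unchanged or not tested. The calls below set a difference against the replicate spread (limma, Benjamini-Hochberg adjustment over the 2694 genes, adjusted p under 0.05), and 99% of the listed genes pass. Because these same libraries appear to have chosen the list, that outcome was largely fixed in advance. The adjusted p values may therefore be too small, and they give no separate support for a difference. The read depth is unknown, so no counting error can be given. The median of the listed genes was 8.17 and 8.18 in the GM libraries and 8.62, 8.52 and 8.43 in HM replicates 1, 2 and 3. Subtracting these medians, called median centring below, makes all differences smaller by 0.35 on the signed scale. The medians, like the quantile normalization used below, rest on a list that appears chosen for change. In it 63.4% of the genes were higher in HM, so neither scaling is neutral, and a call lost under it is no sign of a scaling error. Values after it are given beside the main ones for those of the 28 genes whose call depends on it.

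Of the chondrocyte markers, 5 of 17 were listed (SOX9, ACAN, COL2A1, COL9A2 and COL9A3), and all 5 were higher in HM, though SOX9 was no longer called after median centring (0.30, adjusted p = 0.0525, limma), while defining markers such as HAPLN1, COMP and MATN1 were not listed. Of the markers of other cell types, 5 of 8 for fibroblasts were listed, all higher in HM, and 3 of 5 for smooth muscle, of which ACTA2 was higher and TAGLN and CNN1 were lower. Summed after back-transformation, the listed fibroblast markers lay from 17.87 to 18.01 on the log2 scale in GM and from 18.56 to 18.96 in HM, and the smooth muscle markers from 14.83 to 14.90 and from 13.65 to 14.41. COL1A1 and COL3A1 belong to the fibroblast list and are among the 28 genes, and COL1A1 was no longer called after median centring (0.29, adjusted p = 0.289, limma). Of the markers of hypertrophic chondrocytes and osteoblasts, 2 of 10 were listed, MMP13 (0.70) and PHEX (0.79), both higher in HM and neither called after median centring, while COL10A1 and RUNX2 were not listed. Of the endothelial markers 2 of 5 were listed, TEK with 1.39 and CDH5 with -1.19, and their sum lay from 8.47 to 8.48 in GM and from 8.05 to 8.37 in HM. Of the macrophage markers 2 of 4 were listed, CD14 with 1.24 and CSF1R with -0.51, with sums from 8.25 to 8.47 and from 9.10 to 9.53. Of the epithelial markers 2 of 5 were listed, CDH1 with 0.44 and KRT18 with -0.81, with sums from 15.06 to 15.12 and from 14.02 to 14.51. CDH1 was no longer called after median centring (0.089, adjusted p = 0.581, limma). These marker counts stand against 62.5% of all listed genes called higher and a median difference of 0.56, so a list that is mostly higher is near the lean of the whole table. The sums take the values as plain log2. The part of any change in cell state in the results was not tested.

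All 28 genes passed the test, 23 of them higher in HM and 5 lower, against 62.5% of the 2694 listed genes called higher and 36.5% called lower. Their median difference was 0.74, against 0.56 over all listed genes. In each of the 28 the HM libraries did not overlap the GM libraries, which holds for 99% of the list. By size, 9 rose by at least 1 (background 11.8%) and 3 fell by at least 1 (background 7.05%). This balance depends on the scaling: after median centring 3 rose (background 4.45%) and 4 fell by at least 1 (background 21%), and after quantile normalization 7 rose (background 5.57%) and 3 fell (background 14.8%). Past a difference of 2 stood COL14A1 upward (background 1.04%) and THBS1 downward (background 1.08%). Median centring left 14 called higher (background 31.4%) and 5 lower (background 36.6%), and quantile normalization 20 higher (background 46.7%) and 4 lower (background 35.8%). In these bulk libraries, fewer cells of a type and less RNA per cell cannot be told apart.

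**Figure D1:**
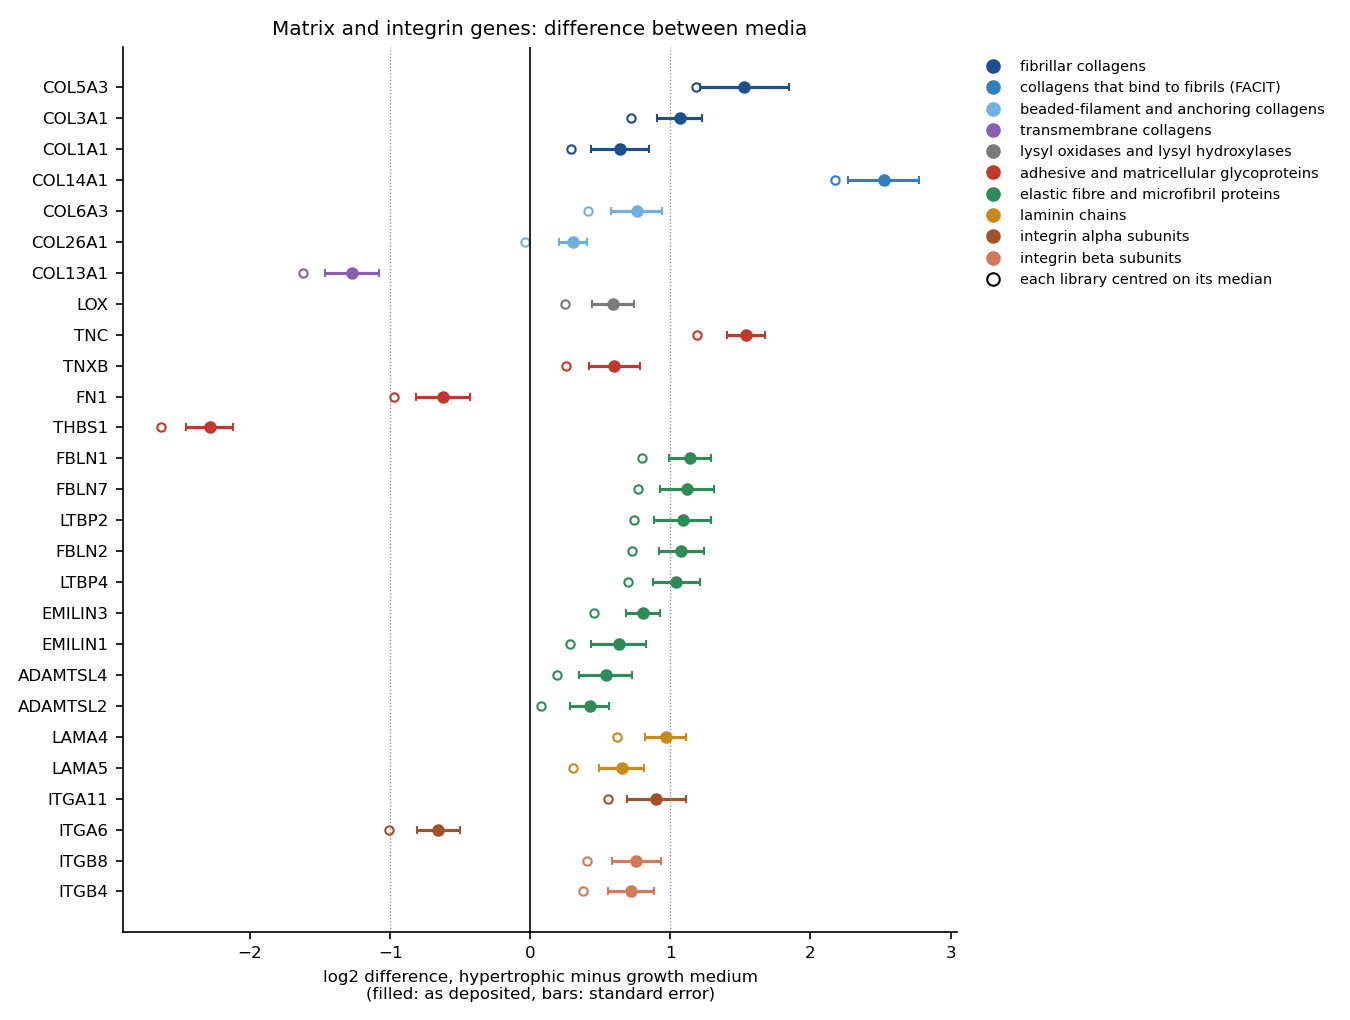
Log2 difference between hypertrophic and growth medium for 27 of the 28 genes, ordered by role, with filled points and standard error bars for the values as deposited and open points for the values after median centring. All collagens but COL13A1, the microfibril genes and the integrin beta genes lie to the right of 0, and THBS1, COL13A1, ITGA6 and FN1 lie to the left. COL26A1 is the gene whose open point crosses 0.

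The adhesive glycoproteins moved in opposite directions. FN1 encodes fibronectin, which links integrins to collagen, THBS1 encodes thrombospondin-1, a matricellular protein that binds and activates latent TGF-β, and TNC encodes tenascin-C, which modulates the adhesion of cells to fibronectin. Because the results on these 3 genes turn on their opposite directions, the 250 bases before their RefSeq start sites are shown, placed on GRCh37 by exact match and written 5′ to 3′ on the gene's strand. GENCODE's outermost starts of FN1 and TNC lie inside these windows. Capitals mark the GC box, GGGCGG or its reverse complement.

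THBS1, chr15:39873030-39873279, plus strand: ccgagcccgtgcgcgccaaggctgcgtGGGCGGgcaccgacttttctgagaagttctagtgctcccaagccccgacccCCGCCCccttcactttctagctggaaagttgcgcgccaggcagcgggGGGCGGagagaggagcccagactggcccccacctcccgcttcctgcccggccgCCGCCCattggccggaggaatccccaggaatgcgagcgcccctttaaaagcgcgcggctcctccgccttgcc
FN1, chr2:216300792-216301041, minus strand: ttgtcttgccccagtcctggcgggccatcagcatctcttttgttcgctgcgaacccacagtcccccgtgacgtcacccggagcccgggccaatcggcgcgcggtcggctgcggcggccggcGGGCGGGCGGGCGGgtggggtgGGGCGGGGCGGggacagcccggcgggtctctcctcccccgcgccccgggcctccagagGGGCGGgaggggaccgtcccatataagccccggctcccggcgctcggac
TNC, chr9:117880437-117880686, minus strand: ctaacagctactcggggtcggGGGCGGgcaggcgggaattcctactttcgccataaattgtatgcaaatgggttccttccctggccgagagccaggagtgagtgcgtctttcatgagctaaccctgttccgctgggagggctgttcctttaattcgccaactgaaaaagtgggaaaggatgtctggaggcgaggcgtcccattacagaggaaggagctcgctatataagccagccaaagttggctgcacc

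The THBS1 window holds 4 GC boxes, the FN1 window 6, which overlap in part, and the TNC window 1. The share of G and C was 69.6% before THBS1, 76.4% before FN1 and 54.8% before TNC, against a median of 58.0% over 35116 RefSeq windows of this length. Windows of 21 of the 28 genes were at hand, with a median of 67.6%. A GC box stood in 14 of the 21, from 12 genes higher and 2 lower in HM, and in 42.6% of all windows. On both strands, GGCGCC, a BMP SMAD element, stood in 6 of the 21 (FBLN1, LTBP2, FBLN2, ITGA11, LAMA5 and ADAMTSL4) and in 16.4% of all windows. GGAATG, the core of a TEAD site, stood before FBLN7, LTBP4 and THBS1 and in 11.9% of all windows, and AGAACA, part of a glucocorticoid element, before FBLN7, LOX and ITGA6 and in 12.4%. TATAAA was found before ADAMTSL2, ITGA6 and COL13A1 and in 10.7% of all windows. The AP-1 site TGANTCA (6.57% of all windows), GTCTAGAC (0.182%) and the CArG box (1.16%) were found in 0 of the 21. Of the 21 genes 17 were higher in HM, so the directions of the genes with a match say little. A match describes the letters of the window and not a site in use.

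THBS1, on chromosome 15 of GRCh37 from 39873280 to 39891667, was 19.44 and 19.20 in the GM libraries and 17.07, 17.23 and 16.80 in HM replicates 1, 2 and 3. The smallest gap of an HM to a GM library was -1.97, so the media were far from overlapping. Its log2 difference was -2.29 (standard error 0.17, adjusted p = 1.44e-05, limma), which ranked 17 among the decreases of the whole list. Leaving out each library in turn kept it between -2.41 and -2.17, while quantile normalization gave -1.54, below a size of 2.

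FN1, on chromosome 2 from 216225163 to 216300796, was 20.86 and 20.58 in GM and 20.04, 20.36 and 19.88 in HM. It had the highest value of all listed genes in each of the 5 libraries. HM replicate 2 came within 0.21 of GM replicate 2, so the media were separated by less than the gap of the GM libraries to each other. The difference was -0.62 (standard error 0.19, adjusted p = 0.012, limma), and the call was lost without GM replicate 1 (-0.48, adjusted p = 0.145, limma). Median centring gives -0.97, and quantile normalization a difference of 0, since the top rank receives the same value in each library.

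TNC, on chromosome 9 from 117781854 to 117880486, was 16.60 and 16.47 in GM and 17.99, 18.03 and 18.21 in HM. The HM libraries lay close together (SD 0.12, n = 3), and all 3 were at least 1.38 above both GM libraries. The difference was 1.54 (standard error 0.14, adjusted p = 4.17e-05, limma), and median centring took it to 1.19. TNXB, the gene of tenascin-X, was 6.60 and 6.54 in GM and 7.43, 7.18 and 6.90 in HM, a difference of 0.60 (adjusted p = 0.0109, limma) that was 0.25 with an adjusted p of 0.177 after median centring. TNXB shares sequence with its partial copy TNXA, which is also listed, and overlaps CYP21A2 on the other strand, so its value is uncertain.

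The gap between a pair of genes within a library does not change when a library is shifted by 1 constant, as in median centring, but it can change under quantile normalization. TNC minus THBS1 was -2.84 and -2.73 in GM and 0.92, 0.80 and 1.42 in HM, so TNC was the lower of the pair in every GM library and the higher in every HM library. This gap moved by 3.83 and the gap TNC minus FN1 by 2.17, with no overlap between the media (3.48 and 1.94 after quantile normalization). An exact two-sided permutation test of the 5 libraries gave p = 0.1 for both, the smallest that 10 arrangements allow. The gaps named here and below were chosen after the values were seen.

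Per length, the order of the most abundant genes changed. Levels per kilobase were taken as the deposited log2 value minus log2 of the length in kilobases of GENCODE's canonical transcript. In GM the levels per kilobase were 17.65 for FN1, 16.36 for THBS1, 14.25 for COL3A1, 14.02 for COL1A1, 13.74 for COL6A3 and 13.45 for TNC. In HM they were 17.03 for FN1, 15.32 for COL3A1, 14.99 for TNC, 14.66 for COL1A1, 14.50 for COL6A3 and 14.07 for THBS1, so THBS1 went from rank 2 to rank 6 and TNC from rank 6 to rank 3 of the 28. In HM, COL1A1 and COL6A3 differed by less than the SD of COL1A1, 0.38 (n = 3), and so did TNC and COL1A1.

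Back-transformed as plain log2 values, which the sources do not state, and summed, the 28 genes made up 33.95% and 30.79% of the summed values of the listed genes in GM and 25.39%, 30.03% and 27.27% in HM. FN1 held 60.6% and 59.2% of the sum of the 28 in GM and 51.6%, 52.1% and 44.8% in HM. THBS1 held 22.65% and 22.83% in GM and 6.59%, 5.94% and 5.29% in HM, while TNC went from 3.17% and 3.44% to 12.4%, 10.4% and 14.1%. The shares of COL6A3, COL3A1 and COL1A1 were each higher in all HM libraries than in both GM libraries. These shares weight long transcripts more, because the values are not per length.

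**Figure D2:**
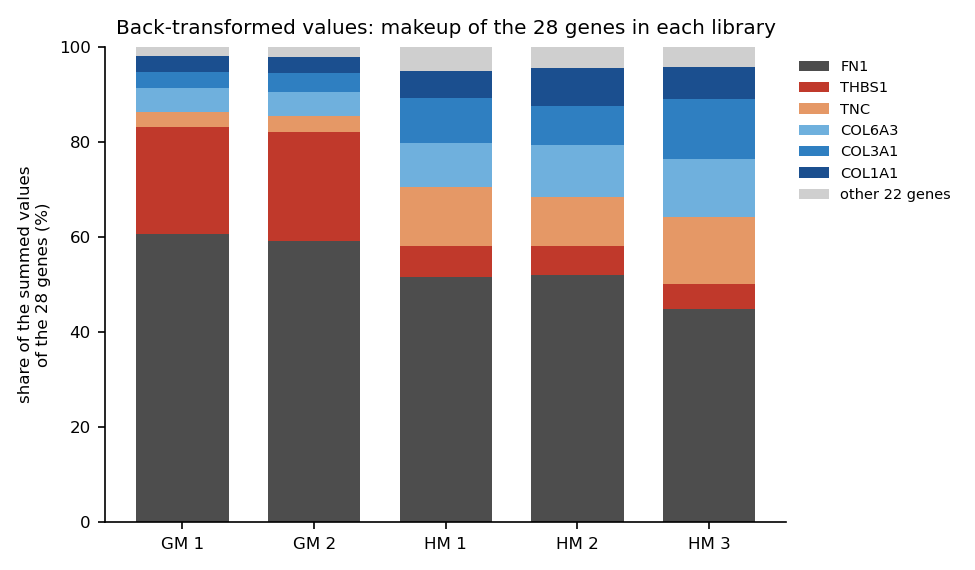
Makeup of the summed values, back-transformed as plain log2, of the 28 genes in each library (share in %, GM growth medium, HM hypertrophic medium), with 6 genes named and the other 22 in light grey. THBS1 falls from 22.65% and 22.83% in GM to at most 6.59% in HM, and the TNC and collagen segments widen.

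All 3 fibrillar collagens taken by the rule rose, where 62.5% of the listed genes were called higher, and 2 of them were still called after median centring (background 31.4%). They are COL3A1, the chain of type III collagen, COL1A1, a chain of type I collagen, and COL5A3, a minor chain of type V collagen, which takes part in starting fibrils. COL5A3, on chromosome 19 from 10070237 to 10121180, was 12.59 and 12.49 in GM and 13.30, 14.65 and 14.26 in HM. HM replicate 1 was the lowest of the 3, and the SD in HM, 0.69, was the largest of the 28 genes. The difference was 1.53 (standard error 0.31, adjusted p = 0.00178, limma). It was 1.91 without that replicate and 1.18 after median centring.

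COL3A1, on chromosome 2 from 189839099 to 189877472, was 16.74 and 16.68 in GM and 17.58, 17.70 and 18.05 in HM, a difference of 1.07 (standard error 0.16, adjusted p = 0.000484, limma). All HM libraries were at least 0.84 above both GM libraries. COL1A1, on chromosome 17 from 48261462 to 48278993, was 16.70 and 16.47 in GM and 16.90, 17.63 and 17.14 in HM, a difference of 0.64 (standard error 0.21, adjusted p = 0.014, limma). HM replicate 1 exceeded GM replicate 1 by only 0.20. Without GM replicate 2 the adjusted p of COL1A1 was 0.0946, and after median centring its difference was 0.29 with an adjusted p of 0.289 (limma). COL1A2, which encodes the partner chain of type I collagen, was not listed, nor were COL5A1 and COL5A2.

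The gap COL3A1 minus COL1A1 was 0.041 and 0.21 in GM and 0.68, 0.066 and 0.91 in HM, so it overlapped between the media (exact two-sided permutation p = 0.3). Hence a larger increase of COL3A1 than of COL1A1 was not shown. The gap COL5A3 minus COL1A1 was -4.11 and -3.98 in GM and -3.59, -2.99 and -2.88 in HM, without overlap (exact two-sided permutation p = 0.2).

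COL14A1 had the largest difference of the 28 in the values as deposited, though after median centring THBS1 (-2.64) exceeded it in size (2.18), and it ranked 5 among the increases of the whole list. It encodes type XIV collagen, a FACIT collagen that binds to the surface of fibrils. On chromosome 8 from 121072019 to 121385812, it was 7.77 and 7.65 in GM and 10.62, 9.66 and 10.42 in HM. The lowest HM library was 1.89 above the higher GM library, and the difference was 2.52 (standard error 0.25, adjusted p = 6.97e-05, limma), or 5.75-fold if the values are read as plain log2. Per kilobase it stayed a gene of modest level, at rank 23 of the 28 in GM and rank 19 in HM. The other 7 FACIT genes of the rule were not listed.

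**Figure D3:**
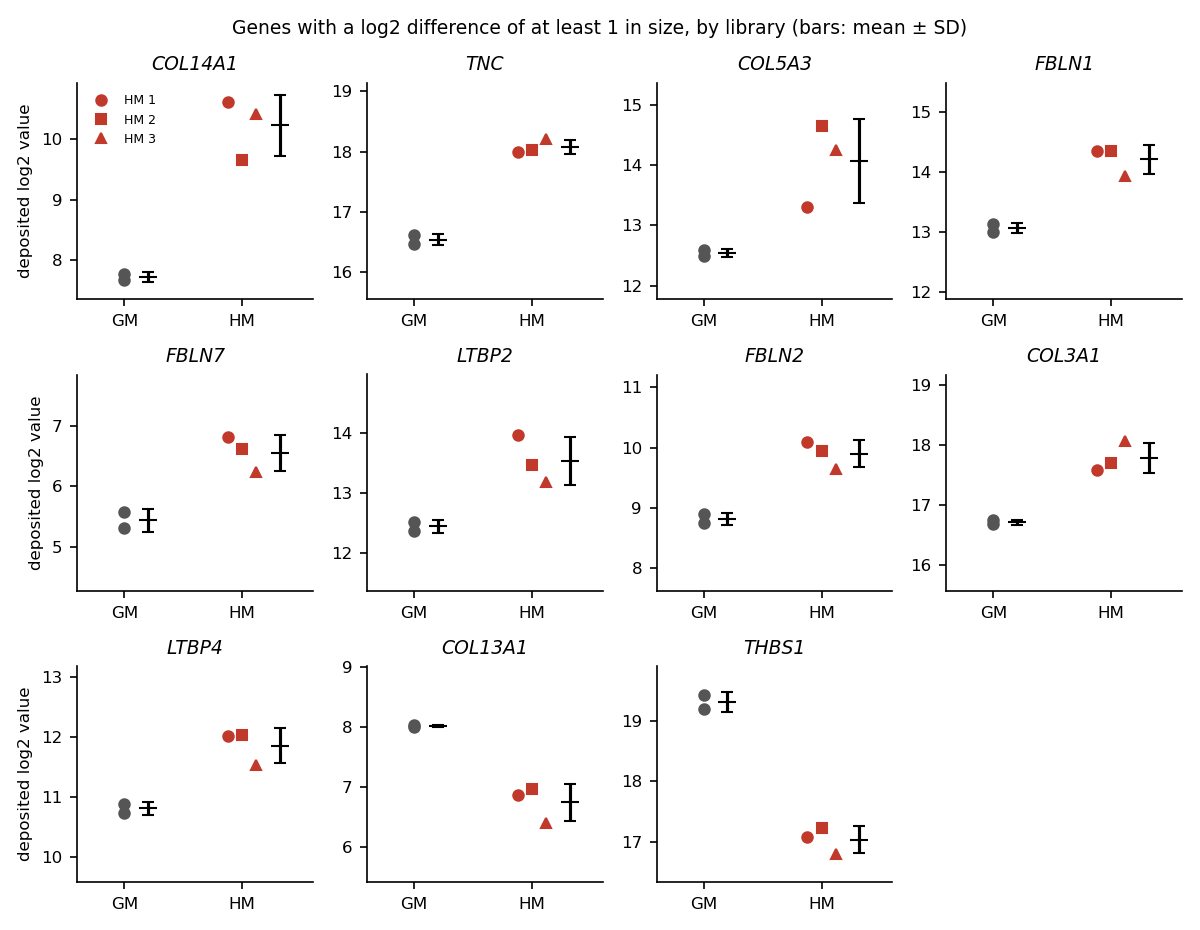
Deposited log2 values by library for 11 of the 12 genes with a difference of at least 1 in size, with grey points for GM, red symbols for HM replicates 1 to 3 and bars for the mean ± SD, every panel spanning the same range. The GM points nearly coincide, and COL5A3 and COL14A1 have the widest HM spread.

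COL6A3 encodes a chain of type VI collagen, which forms beaded filaments in the matrix next to chondrocytes. It was 17.24 and 17.04 in GM and 17.56, 18.11 and 18.02 in HM, a difference of 0.76 (standard error 0.18, adjusted p = 0.00353, limma). It lost its call under median centring, with 0.41 and an adjusted p of 0.138, and under quantile normalization, with 0.55 and an adjusted p of 0.139. COL6A1 and COL6A2, its partner chains, were not listed. COL26A1, with the lowest level per kilobase of the 28, was 4.11 and 4.20 in GM and 4.46, 4.35 and 4.57 in HM, a difference of 0.31 (adjusted p = 0.0144, limma) that turned to -0.039 after median centring.

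COL13A1 was the 1 listed collagen that fell. It encodes type XIII collagen, a transmembrane collagen found at sites of cell adhesion. On chromosome 10 from 71561636 to 71724031, it was 7.999 and 8.03 in GM and 6.86, 6.97 and 6.39 in HM, a difference of -1.27 (standard error 0.19, adjusted p = 0.000524, limma). The smallest gap of an HM to a GM library was -1.03. The network-forming collagens, with 9 genes by the rule including the type IV chains and COL10A1, had 0 listed members, and so did the multiplexins COL15A1 and COL18A1.

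LOX encodes lysyl oxidase, which oxidises lysines of collagen and elastin so that they crosslink. It was 9.42 and 9.68 in GM and 10.23, 10.25 and 9.94 in HM, a difference of 0.59 (standard error 0.15, adjusted p = 0.00499, limma). The call was lost under median centring (0.25, adjusted p = 0.122), under quantile normalization (0.17, adjusted p = 0.273) and without GM replicate 1 (0.47, adjusted p = 0.073, limma). LOXL1 to LOXL4 and the lysyl hydroxylases PLOD1 to PLOD3 were not listed.

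The elastic fibre and microfibril genes were the most numerous group. Of the 22 by the rule 9 were listed, and all 9 rose, by 0.42 to 1.14 with a median of 1.04, against 62.5% called higher and a median of 0.56 over all listed genes. All 9 differences stayed above 0 after median centring, and 6 were still called (background 31.4%), with EMILIN1, ADAMTSL4 and ADAMTSL2 no longer called. The fibulins, which bind tropoelastin or basement membrane proteins, gave 3 of the 5 largest of these increases. FBLN1, on chromosome 22 from 45898118 to 45997015, was 13.12 and 13.002 in GM and 14.34, 14.35 and 13.93 in HM, a difference of 1.14 (standard error 0.15, adjusted p = 0.000243, limma). FBLN7 was 5.30 and 5.58 in GM and 6.82, 6.62 and 6.23 in HM, a difference of 1.12 (standard error 0.19). FBLN2 was 8.74 and 8.89 in GM and 10.09, 9.95 and 9.65 in HM, a difference of 1.08 (standard error 0.16) that was 0.63 after quantile normalization. FBLN5 was not listed.

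LTBP2 and LTBP4 belong to the latent TGF-β binding proteins, of which LTBP4 tethers latent TGF-β to microfibrils and LTBP2 binds fibrillin without it. LTBP2 was 12.53 and 12.38 in GM and 13.98, 13.47 and 13.18 in HM, a difference of 1.09 (standard error 0.20, adjusted p = 0.00118, limma) that was 0.87 without HM replicate 1. LTBP4 was 10.89 and 10.74 in GM and 12.02, 12.03 and 11.53 in HM, a difference of 1.04 (standard error 0.17, adjusted p = 0.000619, limma). LTBP4 lies just inside a size of 1 and LAMA4, with 0.97, just outside it, and these differ by less than the standard error of either. In none of these 5 genes did the HM libraries come closer than 0.64 to the GM libraries.

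Of the EMILINs, glycoproteins at the interface of elastin and microfibrils, EMILIN3 rose by 0.80 (standard error 0.12, adjusted p = 0.000527, limma) and EMILIN1 by 0.63 (standard error 0.20, adjusted p = 0.0117, limma). EMILIN3 was 10.12 and 10.16 in GM and 11.05, 10.96 and 10.82 in HM, and it was still called after median centring (0.46) and quantile normalization (0.38). EMILIN1 was no longer called after median centring (0.29, adjusted p = 0.169, limma) but was still called after quantile normalization (0.50, adjusted p = 0.0279, limma). The ADAMTS-like genes encode secreted proteins without protease activity that bind fibrillin microfibrils. ADAMTSL4 was 8.16 and 7.92 in GM and 8.54, 8.88 and 8.33 in HM, and ADAMTSL2 was 5.57 and 5.50 in GM and 5.80, 6.04 and 6.02 in HM. Their differences were 0.54 and 0.42, and after median centring 0.19 and 0.077, with adjusted p of 0.353 and 0.678 (limma). The fibrillins FBN1, FBN2 and FBN3, the core of these microfibrils, and ELN were not listed.

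Laminins are trimers of an alpha, a beta and a gamma chain, and the alpha chains LAMA4 and LAMA5 were listed. LAMA4, an alpha chain of vessel and mesenchymal basement membranes, was 10.79 and 10.78 in GM and 12.02, 11.59 and 11.65 in HM, a difference of 0.97 (standard error 0.15, adjusted p = 0.000515, limma) that was 0.62 after median centring and 0.63 after quantile normalization. LAMA5, the widely used alpha chain of laminin-511, was 13.89 and 13.67 in GM and 14.38, 14.71 and 14.21 in HM, a difference of 0.65 (standard error 0.16, adjusted p = 0.00395, limma) that was 0.31 with an adjusted p of 0.115 after median centring. The gap LAMA4 minus LAMA5 overlapped between the media (exact two-sided permutation p = 0.4), so a difference between the 2 increases was not shown.

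Of the integrins, 2 of 11 alpha subunits and 2 of 8 beta subunits were listed. ITGA11, a collagen receptor subunit that pairs with ITGB1, was 12.22 and 12.10 in GM and 13.27, 13.34 and 12.57 in HM, a difference of 0.90 (standard error 0.21, adjusted p = 0.00327, limma). HM replicate 3 stood apart, 0.35 above the higher GM library, and without it the difference was 1.14. After median centring ITGA11 had a difference of 0.55. ITGB8, a subunit of a receptor that activates latent TGF-β, was 11.16 and 11.14 in GM and 12.28, 11.71 and 11.72 in HM, a difference of 0.76 (standard error 0.17, adjusted p = 0.00303, limma) that was 0.41 after median centring and 0.45 after quantile normalization. ITGB1, the partner of most collagen and laminin receptors, was not listed.

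ITGA6 and ITGB4 encode the subunits of the laminin receptor α6β4, the 1 pair by the chain lists with both partners listed, and they moved in opposite directions. ITGA6, on chromosome 2 from 173292082 to 173371187, was 12.74 and 12.73 in GM and 12.38, 11.98 and 11.88 in HM, a difference of -0.66 (standard error 0.15, adjusted p = 0.00318, limma). ITGB4, on chromosome 17 from 73717408 to 73753899, was 8.06 and 8.21 in GM and 9.05, 8.87 and 8.65 in HM, a difference of 0.72 (standard error 0.16, adjusted p = 0.00286, limma). The difference of ITGB4 was 0.37 under median centring as under quantile normalization and still called, and that of ITGA6 was -1.005 and -0.74. The gap ITGB4 minus ITGA6 was -4.68 and -4.53 in GM and -3.32, -3.11 and -3.24 in HM. It narrowed by 1.38 (1.11 after quantile normalization), with an SD of 0.11 in each medium and an exact two-sided permutation p of 0.1, the smallest possible. ITGA6 also pairs with ITGB1.

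**Figure D4:**
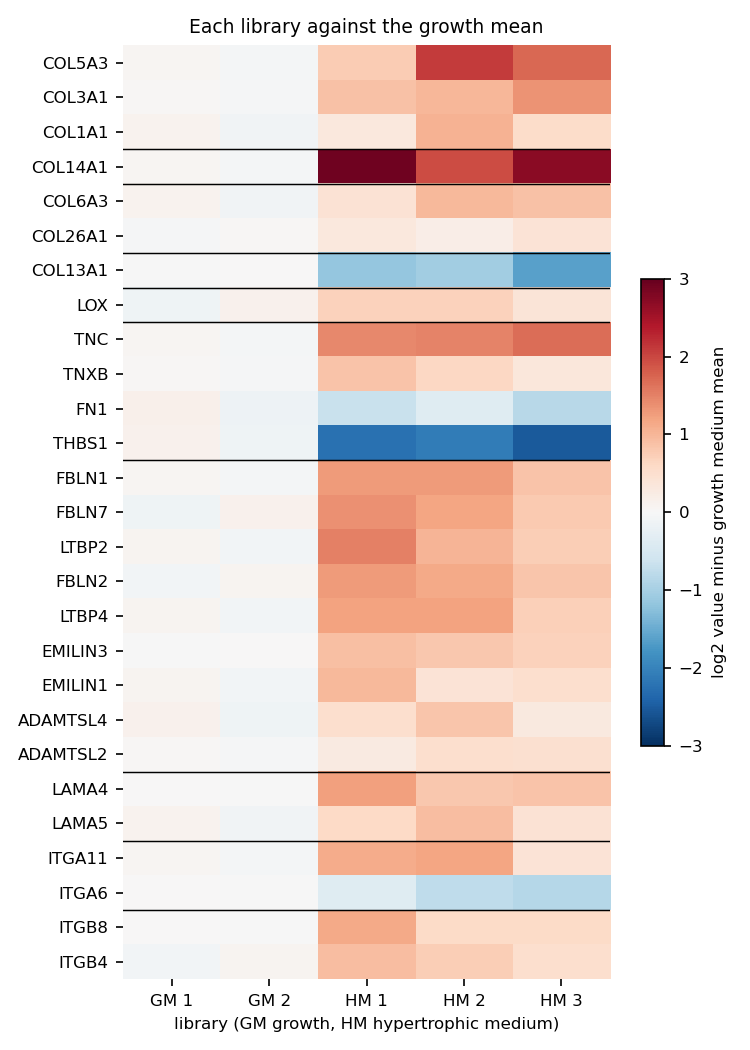
Deposited log2 value of 27 of the 28 genes in each library minus its GM mean, with roles separated by lines (GM growth medium, HM hypertrophic medium, red higher and blue lower). COL5A3, COL1A1 and COL6A3 are palest in HM 1, whereas LTBP2, EMILIN1 and ITGB8 are deepest there.

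HM replicate 1 was the highest of the 3 for 12 of the 28 genes, replicate 2 for 13 and replicate 3 for 3, against 43.1%, 35.8% and 21.1% of all listed genes. HM replicate 1 was the lowest of the 3 for 6 of the 28 (COL5A3, COL3A1, COL1A1, COL6A3, TNC and ADAMTSL2), against 24.8% of all listed genes. It was the highest for FBLN7, LTBP2, FBLN2, EMILIN3 and EMILIN1 among the microfibril genes. Replicate 3 was the lowest for 16 of the 28, against 49.4% of all listed genes.

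Of 92 genes that fold, bind or sense the same matrix and are outside the rule, 27 were listed, 18 of them called higher, 8 lower and 1 not called, with a median difference of 0.72, near the 62.5% called higher and 36.5% called lower over all listed genes. After median centring 13 were called higher (background 31.4%) and 8 lower (background 36.6%), with COLGALT2, SMOC1, DAG1, DDR1 and SDC2 no longer called. The largest increases were those of MFAP4, a microfibril-associated glycoprotein, with 2.41 (standard error 0.30, adjusted p = 0.0002, limma), BGN, which encodes the small proteoglycan biglycan, with 2.10 (standard error 0.21, adjusted p = 6.81e-05, limma), and SDC3, a cell surface heparan sulfate proteoglycan, with 1.36. MFAP4 was 8.16 and 7.95 in GM and 11.19, 10.08 and 10.12 in HM, and BGN was 9.70 and 9.57 in GM and 12.03, 11.92 and 11.27 in HM. Among the decreases were those of FERMT1, an integrin activator, with -1.50 (standard error 0.17, adjusted p = 0.000148, limma), and CCN1, a matricellular integrin ligand, with -0.94.

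Among the genes of collagen folding and processing, 5 of 23 were listed. PCOLCE, an enhancer of procollagen cleavage, rose by 1.19 and COLGALT2, a collagen galactosyltransferase, by 0.68 (0.33 and no longer called after median centring), while TLL1, a procollagen protease, fell by 0.74, P4HA1, a subunit of prolyl 4-hydroxylase, fell by 0.70, and PCOLCE2 fell by 0.61. Both listed small leucine-rich proteoglycans rose, LUM by 1.30 beside BGN, with 62.5% called higher over all listed genes. Of the basement membrane and microfibril partners, 9 of 25 were listed, with 7 higher, CCN1 lower and EGFLAM not called (0.59, adjusted p = 0.0678, limma). Of the 7, SMOC1 and DAG1 were not called after median centring, which left 5 (background 31.4%).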

How the data were processed

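Per the study's methods, the authors trimmed the reads, aligned them to hg19 (HISAT2), estimated counts of known transcripts (StringTie, NCBI annotation), left out genes with a zero count, and deposited RLE-normalized log2 values, 1 per gene and library. The transformation is not named further. The submitters' processing notes instead list cutadapt 1.18, TopHat2 2.0.13, Cuffdiff 2.2.1 and the rat build rn5. The symbols are human, and hg19 was taken as the build. The library kit keeps strand, but whether counting used it is not given in the sources used here. THBS1, LOX, ITGB4, LAMA4, LAMA5, EMILIN3 and ADAMTSL4 overlap a gene on the other strand.

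All 2694 genes of the 5 libraries were fitted with limma 3.58.1 (R 4.3.3; lmFit, eBayes with trend, no replicate block), since the count model named in the study's methods cannot take log2 values. Benjamini-Hochberg adjustment ran over all of them. Groups came from the treatment label. The fit was tested on simulated data. Permutation tests enumerated the 10 arrangements of the libraries. Coordinates and exons are GENCODE 44 on GRCh37, promoter windows RefSeq's GRCh38.p14 set, placed on GRCh37 by exact match. Matching 21 of the 28 genes, they were cut to the bases before the start site. Figures used Python 3.11.15 and matplotlib 3.10.9.

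The genes and lists were chosen with earlier results of these data known. Named with values were genes with a difference of at least 1 in size, the largest in each direction per role, genes whose direction turned, chain partners, and the 3 largest per direction of the pathway lists. Others were named after their values were seen. Alternatives were the replicate block, each library left out, 2 scalings, no trend, a filter on low values and 3 thresholds. A member and a pathway gene that this rule names are counted but not reported here.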

Additional observations from a re-analysis of the deposited data

How the results depend on the processing

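Of the 28 genes, 18 kept their direction and call under every alternative fit that could include them, and 10 lost the call in at least one. Median centring left 14 genes called higher, and COL26A1 turned to -0.039. The calls lost were those of COL6A3, LAMA5, COL1A1, EMILIN1, TNXB, LOX, ADAMTSL4, ADAMTSL2 and COL26A1. This centring lowers every difference by 0.35 and, with another median for each library, also changes the replicate spread. The parts of the shift and of the spread in these losses were not separated. Requiring a difference of at least 1 left 9 higher and 3 lower, with the adjusted and with the raw p (3 and 4 after median centring, 7 and 3 after quantile normalization), and more than 2 left 1 and 1. Keeping only genes at or above the median value left 20 of the 28, of which 17 were called higher and 3 lower, since fewer were tested. Leaving out 1 library gave 18 to 23 higher and 4 to 5 lower, where the GM libraries cost most calls. Without GM replicate 2, COL1A1, EMILIN1, TNXB, ADAMTSL4 and ADAMTSL2 lost theirs, without GM replicate 1 FN1, LOX, COL26A1 and ADAMTSL2 did, and without HM replicate 2 ADAMTSL4 did. The lone GM library is then assumed to vary like the others. Quantile normalization gave 20 higher and 4 lower, with COL6A3, LOX, ADAMTSL4 and FN1 no longer called. The replicate number as a block gave 22 higher and 4 lower, with FN1 (-0.52, adjusted p = 0.181, limma) and COL26A1 (0.25, adjusted p = 0.0544, limma) no longer called. However, same-numbered libraries did not deviate together (correlation across genes -0.0253), so the numbers are not taken as pairs. Alternatives that need counts or a linear scale (a count model, another pseudocount) were not run. Depth limits are unknown, and precision rests on 2 and 3 libraries.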

Other observations

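Outside the 28 genes, proteins that connect integrins to the cytoskeleton were also listed. The tensin genes TNS1, TNS2 and TNS3, which bind integrin tails in fibrillar adhesions, rose by 0.73, 0.72 and 0.89 (adjusted p = 0.00135, 0.000956 and 0.000219, limma). TNS3 was 13.27 and 13.25 in GM and 14.24, 14.19 and 14.04 in HM. The KANK genes, which bind talin at the rim of focal adhesions, moved in opposite directions: KANK2 rose by 0.82 (standard error 0.11) and KANK1 fell by 0.84 (standard error 0.13). Among other matrix receptors, DDR1, a collagen receptor kinase, rose by 0.62, and CD44, the hyaluronan receptor, fell by 0.63, with adjusted p of 0.00269 and 0.00212 (limma). After median centring DDR1 was no longer called (0.28, adjusted p = 0.0613, limma), while the tensin, KANK and CD44 genes kept their direction and call.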
